A study of Mus musculus with 10 samples.

Results

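Matrix metalloproteinases (MMPs) and their tissue inhibitors (TIMPs) were followed in RNA of cardiomyocytes isolated 4 days after myocardial infarction (MI) from 5 NLC-MI mice, the non-transgenic littermate controls, and 5 TgGRK5-MI mice, which overexpress the G protein-coupled receptor kinase GRK5 in cardiomyocytes. The members were 6 proteases (Mmp2, Mmp3, Mmp9, Mmp12, Mmp14 and Mmp19) and 4 inhibitors (Timp1, Timp2, Timp3 and Timp4), taken by symbol from the GENCODE M21 annotation of GRCm38 among the 51789 Ensembl identifiers of the count table. All mice of both groups had an MI, and uninjured or sham-operated hearts were not analysed here. The promoter that drives the transgene is not given in the sources used here, and the labels give neither the age nor the sex of these mice. RNA came from an isolate of cardiomyocytes for which the labels name no cell sort, so RNA of other cardiac cells could enter each library.

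MMPs are zinc-dependent endopeptidases that cut collagens, elastin, laminins and other matrix proteins, and most are made as inactive proenzymes that another protease must cut. TIMPs bind the active site and block it, and TIMP2 also bridges the proenzyme of MMP2 to membrane-bound MMP14, which then activates it. In the infarcted heart both families are known for the turnover of the dead muscle's matrix and for the build-up of the scar, and fibroblasts, macrophages and neutrophils are known sources of both beside the cardiomyocytes.

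None of the 10 members passed an adjusted p under 0.10 between TgGRK5-MI and NLC-MI in edgeR's quasi-likelihood test with Benjamini-Hochberg adjustment over the 15232 genes tested, of which 0.0788% passed, and DESeq2 and limma-voom also called 0 members. At an unadjusted p under 0.05 each of these tools called 1 member, Timp3, which was 1.31-fold higher in TgGRK5-MI, as 1.77% of all genes were called higher in edgeR. The spread inside each group was smallest for Timp3, with a coefficient of variation (SD over mean) of 12.7% and 13.7%, and was 18.7% to 79.7% for the other 9 members. Mmp14, Mmp2, Timp2 and Mmp19 ran with fibroblast markers, whereas Timp4, with 59.3% and 46.4%, ran with no marker list.

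Libraries held 7968779 to 23381527 counts, with 2 libraries under 10000000 (NLC-MI replicate 3 and TgGRK5-MI replicate 4). Grk5 checked the labels, at 60.4 ± 9.50 in NLC-MI against 1222 ± 472 in TgGRK5-MI, in CPM (counts scaled to library size with edgeR's TMM factors, SD, n = 5) and with no overlap. Summed over 10 markers each, cardiomyocyte genes (led by Myh6 and Actc1) made up 56504 to 146947 CPM and fibroblast genes (led by Col3a1 and Col1a1) 4157 to 25013 CPM. Macrophage genes (led by Lyz2 and C1qb) lay between 761 and 2626 CPM, endothelial genes (led by Fabp4 and Cdh5) between 1055 and 2373 CPM and mural genes (led by Acta2 and Rgs5) between 1184 and 2230 CPM. Neutrophil genes (led by Clec4d and Csf3r, 7 of 10 tested) summed to 17.1 to 48.6 CPM, and among their defining markers Ly6g had 0 or 1 count and Mpo and Retnlg 0 to 11 counts in every library. Lymphocyte genes (led by Trac and Lck, 2 of 10 tested) summed to 1.70 to 7.20 CPM. Both groups overlapped in each of the 7 sums, and no sum differed between groups in a two-sided exact permutation test (p from 0.278 for macrophage genes to 0.921 for fibroblast genes).

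The proteases lie on several chromosomes of GRCm38. Mmp14 (ENSMUSG00000000957) lies on chromosome 14 from 54431612 to 54445364, Mmp2 (ENSMUSG00000031740) on chromosome 8 from 92827291 to 92853420 and Mmp9 (ENSMUSG00000017737) on chromosome 2 from 164940780 to 164955850. Mmp12 (ENSMUSG00000049723, 7344381 to 7369499) and Mmp3 (ENSMUSG00000043613, 7445822 to 7455975) both lie in the MMP cluster of chromosome 9. Timp2 (ENSMUSG00000017466) lies on chromosome 11 from 118301069 to 118355740. All 10 members passed edgeR's filter on low counts, with counts per library between 26 (Timp4 in NLC-MI replicate 3) and 6808 (Mmp14 in TgGRK5-MI replicate 2). Several lie within or against other genes, which matters because the library kit does not mark strand and the strand setting of the counting is not stated. Timp1 (ENSMUSG00000001131, chromosome X, 20870166 to 20874735), Timp3 (ENSMUSG00000020044, chromosome 10, 86300372 to 86349506) and Timp4 (ENSMUSG00000030317, chromosome 6, 115241892 to 115252205) each lie inside a synapsin gene on the opposite strand, namely Syn1, Syn3 and Syn2. Timp3 shares 1733 exon bases with Syn3, which had 1 to 12 counts where Timp3 had 1299 to 6125. Timp4 shares 90 exon bases with Syn2, which had 11 to 51 counts, and Mmp12 shares 157 with Mmp1b, which had 0. Mmp19 (ENSMUSG00000025355, chromosome 10, 128790910 to 128800824) shares 789 exon bases with Tmem198b on the opposite strand, which had 63 to 382 counts against 60 to 457 for Mmp19, so the count of Mmp19 is uncertain.

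Upstream sequence is shown for Mmp3 and Mmp12, which hold a motif of AP-1 (the dimer of Fos and Jun proteins, whose genes are described below), and for Timp3, the member with the lowest p. The RefSeq promoter table (GRCm38.p6) held 8 starts of 7 members (all but Mmp2, Mmp9 and Mmp19), and up to 250 bases before the start were read, without bases in an annotated exon. The motif searched was TGANTCA, where N is any base. It reads the same on both strands, and no other motif was searched. Bases remained to search at 7 of the 8 starts, since none were left before Timp2. The motif was present at 2 of these 7, Mmp3 and the second start of Mmp12, which lies inside the annotated gene. With exon bases kept, over all 250 bases, the motif was present at 2 of the 8 member starts and at 6.75% of the 32851 starts in the table. The capitals mark it in the lines below, each read 5′ to 3′ on the plus strand. Its first base is at position -46 from the start in Mmp3 and at position -44 in Mmp12.
Mmp3, chr9:7445572-7445821: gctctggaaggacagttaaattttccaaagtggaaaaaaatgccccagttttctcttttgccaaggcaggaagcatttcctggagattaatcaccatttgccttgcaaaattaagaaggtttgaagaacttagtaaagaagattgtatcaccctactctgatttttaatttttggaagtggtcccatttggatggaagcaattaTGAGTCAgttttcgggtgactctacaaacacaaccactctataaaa
Mmp12, second start, chr9:7347124-7347373: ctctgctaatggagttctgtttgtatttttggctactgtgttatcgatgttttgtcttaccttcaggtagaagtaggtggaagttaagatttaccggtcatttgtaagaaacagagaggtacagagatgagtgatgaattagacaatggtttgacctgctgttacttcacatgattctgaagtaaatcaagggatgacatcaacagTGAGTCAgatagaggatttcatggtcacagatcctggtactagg
Timp3, chr10:86300162-86300371: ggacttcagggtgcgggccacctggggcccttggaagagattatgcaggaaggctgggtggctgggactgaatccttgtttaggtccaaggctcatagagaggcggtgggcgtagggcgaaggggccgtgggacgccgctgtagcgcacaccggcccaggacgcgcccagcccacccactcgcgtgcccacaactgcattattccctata
The Timp3 sequence of 210 bases holds no match to these letters.

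To compare genes with each other, CPM was divided by the length of all exons in kb. All annotated exons count, from 888 bases in Timp1 to 8144 in Timp3, so this length can exceed that of a single transcript. On this scale of level per length, averaged over the 10 libraries, Timp1 was highest at 157 CPM per kb. Timp2 followed at 44.0 CPM per kb, and then Mmp14 at 27.8, Timp3 at 25.9 and Mmp2 at 25.8 CPM per kb. The other members were lower, with Mmp19 at 3.89, Mmp12 at 3.28, Mmp3 at 3.23, Timp4 at 2.21 and Mmp9 at 1.46 CPM per kb. Timp1 was above Timp2, Timp2 above Mmp14, and Mmp2 above Mmp19 in 10 of 10 libraries. The order of the remaining neighbours varied between libraries. Mmp14 was above Timp3 in 5 of 10, Timp3 above Mmp2 in 6, Mmp19 above Mmp12 in 8, Mmp12 above Mmp3 in 4, Mmp3 above Timp4 in 7 and Timp4 above Mmp9 in 6. The summed level of the 4 inhibitors per length was 3.93 ± 1.5 times that of the 6 proteases in NLC-MI and 4.02 ± 1.16 times in TgGRK5-MI (SD, n = 5). Timp1 alone made up most of the inhibitor sum, at 157 CPM per kb against 44.0, 25.9 and 2.21 for Timp2, Timp3 and Timp4. The inhibitor sum therefore mainly reflects Timp1 and does not describe the inhibitors as a family. The ratio was 2.24 to 2.80 in replicates 1 and 2 of both groups and 3.92 to 5.94 in the other 6 libraries. The protease sum was 76.8 to 114 CPM per kb in those replicates 1 and 2 and 25.5 to 59.6 CPM per kb in the other 6. Differences of the ratio between libraries did not follow Timp1 alone. At a Timp1 level of 206 CPM per kb (NLC-MI replicate 1) the ratio was 2.75, and at 211 (TgGRK5-MI replicate 4) it was 4.91.

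**Figure D1:**
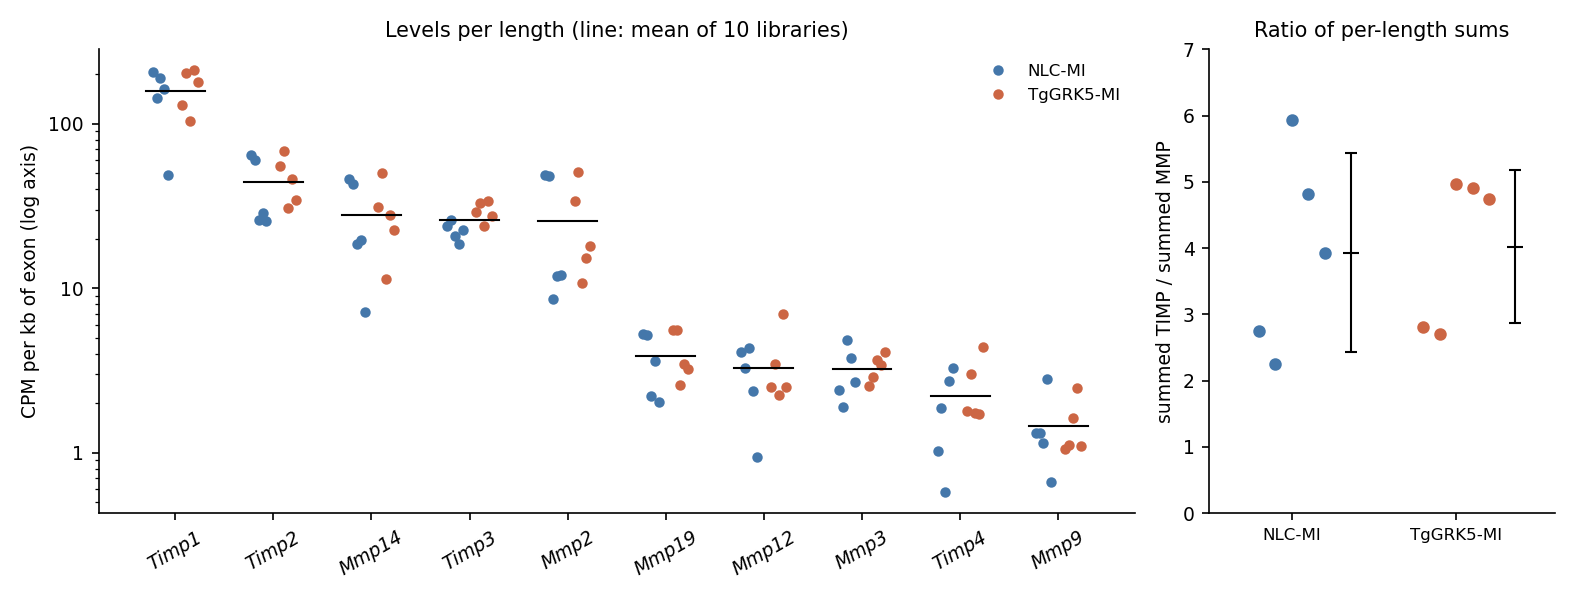
Left, level of each member in CPM per kb of exon (log axis) in each of the 10 libraries, coloured by group, with a line at the mean of 10. Right, ratio of the summed TIMP to the summed MMP level per length in each library, with mean and SD to the right of each group. Timp1 leads in every library, and the ratio is 3.93 ± 1.5 in NLC-MI and 4.02 ± 1.16 in TgGRK5-MI.

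Mmp14, Mmp2 and Timp2 encode the 3 proteins of the membrane complex that activates MMP2. Mmp14, the membrane-anchored collagenase, was at 275, 256, 110, 118 and 42.8 CPM in NLC-MI replicates 1 to 5 and at 187, 297, 67.9, 166 and 135 CPM in TgGRK5-MI replicates 1 to 5. Replicates 1 and 2 were the highest of each group and the groups overlapped across nearly their whole range. The log2 fold change (TgGRK5-MI minus NLC-MI) of Mmp14 was 0.09 (SE 0.47, 95% confidence interval -0.94 to 1.12), and the two-sided exact permutation test on log2 CPM gave p = 0.706.

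Mmp2 (gelatinase A), which cuts denatured collagen and type IV collagen, was at 164, 162, 29.2, 39.9 and 40.3 CPM in NLC-MI and at 114, 172, 36.3, 51.7 and 61.3 CPM in TgGRK5-MI, in the same order of replicates. The 2 high libraries of each group were again replicates 1 and 2, and the spread was the widest of the members, with a coefficient of variation of 79.7% among NLC-MI and 64.0% among TgGRK5-MI libraries. The log2 fold change of Mmp2 was -0.00 (SE 0.56, interval -1.22 to 1.22), so levels up to 2.33-fold higher or lower lay inside the interval. Timp2, the inhibitor of this complex, was at 251, 234, 101, 112 and 99.9 CPM in NLC-MI and at 216, 268, 120, 179 and 135 CPM in TgGRK5-MI. Its libraries fell in nearly the same order as those of Mmp14, and its log2 fold change was 0.20 (SE 0.32, interval -0.50 to 0.90, exact permutation p = 0.460).

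Mmp9 (gelatinase B), stored in the granules of neutrophils and also made by macrophages, was low. It was at 4.67, 4.66, 4.06, 9.90 and 2.36 CPM in NLC-MI and at 3.71, 3.97, 5.74, 8.72 and 3.92 CPM in TgGRK5-MI. Replicate 4 was the highest of each group, the groups overlapped, and the log2 fold change was -0.01 (SE 0.37, interval -0.81 to 0.80).

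Mmp3 (stromelysin-1), which cuts proteoglycans and activates other MMP proenzymes, lay between 3.44 and 8.77 CPM in NLC-MI and between 4.56 and 7.41 CPM in TgGRK5-MI. The range in TgGRK5-MI sat inside that of NLC-MI, and the log2 fold change was 0.10 (SE 0.26). Mmp12 (macrophage elastase) was at 29.5, 23.6, 31.4, 17.3 and 6.87 CPM in NLC-MI and at 18.3, 25.2, 16.2, 50.7 and 18.1 CPM in TgGRK5-MI. TgGRK5-MI replicate 4 held the highest Mmp12 of all libraries and NLC-MI replicate 5 the lowest. The log2 fold change of Mmp12 was 0.24 (SE 0.41), and it was -0.16 without TgGRK5-MI replicate 4. Mmp19, a protease of basement membrane proteins, lay between 7.20 and 18.8 CPM in NLC-MI and between 9.13 and 19.8 CPM in TgGRK5-MI, with replicates 1 and 2 highest in both groups and a log2 fold change of 0.15 (SE 0.32).

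Timp1, a secreted inhibitor of many MMPs that is induced in injured tissue, was at 183, 127, 167, 144 and 43.1 CPM in NLC-MI and at 115, 181, 92.1, 187 and 158 CPM in TgGRK5-MI. NLC-MI replicate 5 was the lowest library, and the other 9 lay between 92.1 and 187 CPM. Its log2 fold change was 0.14 (SE 0.33, interval -0.58 to 0.87), and it was -0.09 without NLC-MI replicate 5.

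Timp3, the inhibitor that stays bound to the matrix and also blocks the sheddase ADAM17, was at 196, 212, 170, 152 and 183 CPM in NLC-MI and at 238, 267, 194, 275 and 224 CPM in TgGRK5-MI. Of the TgGRK5-MI libraries, 4 of 5 lay above the highest NLC-MI library, and replicate 3 lay within the NLC-MI range. The means were 183 ± 23.1 CPM and 240 ± 32.8 CPM (SD, n = 5), a log2 fold change of 0.39 (SE 0.15, interval 0.07 to 0.71), or 1.31-fold with an interval of 1.05 to 1.64. The unadjusted p was 0.0213 in edgeR's quasi-likelihood test and the adjusted p was 1.00. The two-sided exact permutation test gave p = 0.0238, where 0.00794 is the smallest p that 5 against 5 libraries allow. Without NLC-MI replicate 4, TgGRK5-MI replicate 2 or TgGRK5-MI replicate 4, the unadjusted edgeR p of Timp3 was 0.0555, 0.0524 and 0.0508. It was 0.0794 without both libraries under 10000000 counts, with a log2 fold change of 0.31. The fold change stayed above 0 in 19 of 19 alternatives, from 0.30 to 0.45 on the log2 scale. Whether more Timp3 RNA per cell or more cells of a kind that expresses it gave the higher value cannot be told apart in bulk RNA, and this holds for each member.

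Timp4, known as the TIMP of heart muscle, was at 6.03, 11.1, 3.40, 16.0 and 19.2 CPM in NLC-MI and at 10.6, 17.8, 10.3, 10.1 and 25.9 CPM in TgGRK5-MI. Replicate 5 was the highest of each group. On the log2 CPM scale each of the 5 TgGRK5-MI libraries lay above the NLC-MI mean, but the groups overlapped and the log2 fold change of 0.42 had an SE of 0.43 (interval -0.53 to 1.36, exact permutation p = 0.341). It was 0.12 without TgGRK5-MI replicate 5 and 0.69 without NLC-MI replicate 5. 

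**Figure D2:**
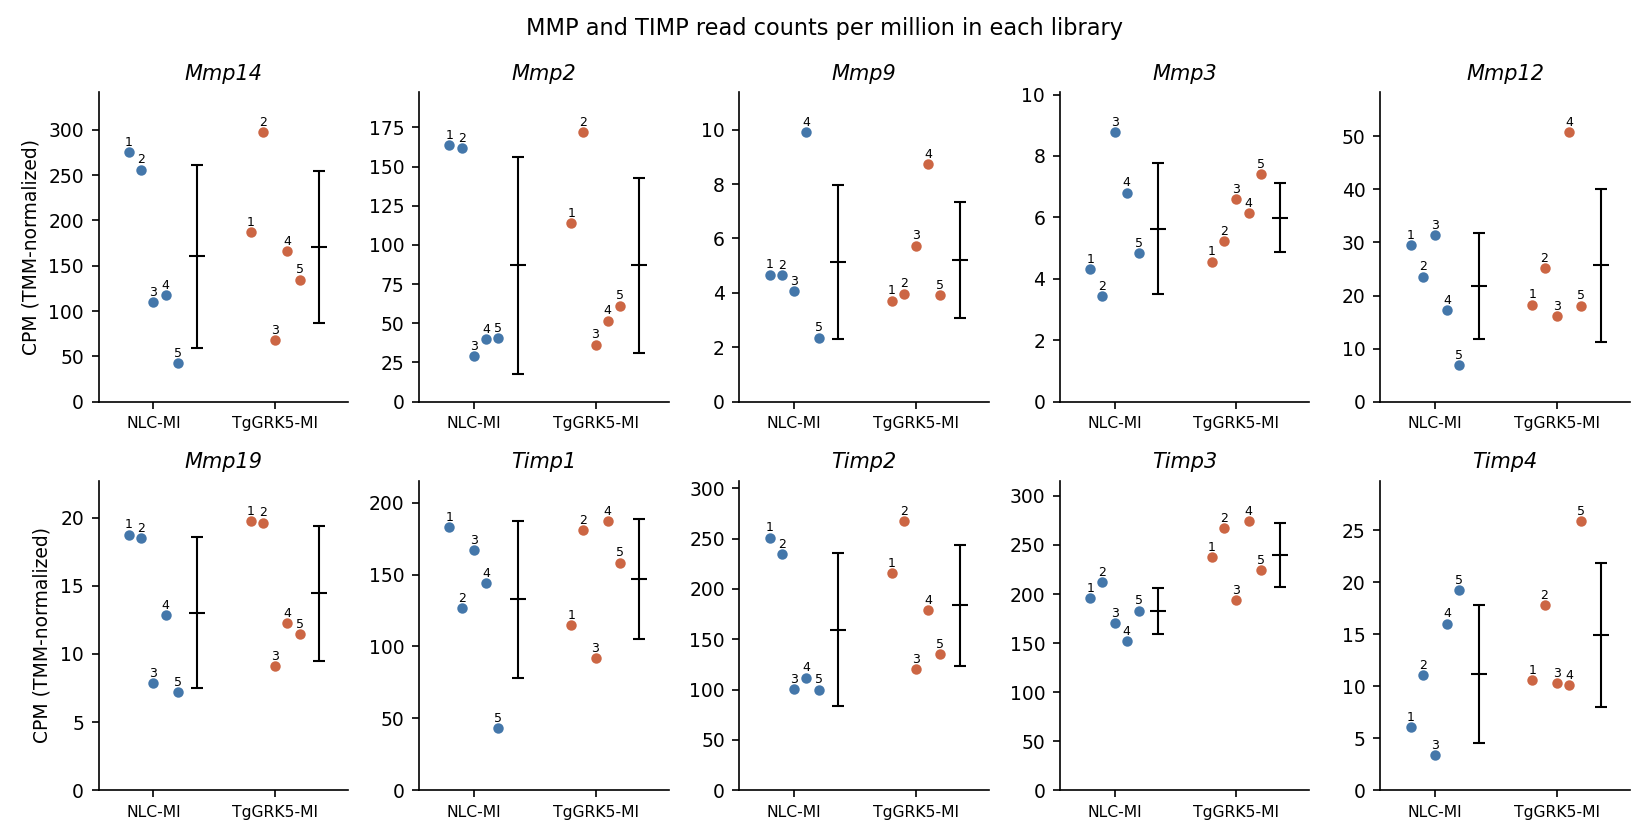
Level of each of the 10 members in CPM, with 1 point per library numbered by replicate, and the mean ± SD (n = 5) to the right of each group. Replicates 1 and 2 of both groups are high for Mmp14, Mmp2, Mmp19 and Timp2, and Timp3 shows the smallest spread, with 4 of 5 TgGRK5-MI libraries above the highest NLC-MI library.

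Across the members, 8 of 10 fold changes were above 0 and 2 below, beside 7646 and 7586 of the 15232 genes tested. These signs are not independent, since several members ran with each other. The median log2 fold change was 0.14, against 0.00 over all genes tested. The within-group SD over libraries of the members' median log2 CPM deviation was 0.42. The median was -0.07 in limma-voom with quality weights on the libraries. With 1 library dropped it was lowest at -0.01 without NLC-MI replicate 5 and highest without NLC-MI replicate 1 (0.32), NLC-MI replicate 2 (0.31) or TgGRK5-MI replicate 3 (0.28), and it was 0.07 without TgGRK5-MI replicate 2. At an adjusted p under 0.10, 0 of 10 members were called, where 0.0788% of all genes were. At an unadjusted p under 0.05, 1 member was higher and 0 were lower, beside 1.77% and 2.08% of all genes. The groups did not overlap for 0 members and for 1.00% of all genes. The 95% interval of 9 of 10 members reached both sides of 0, so a difference of a size inside those intervals remains compatible with these data.

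**Figure D3:**
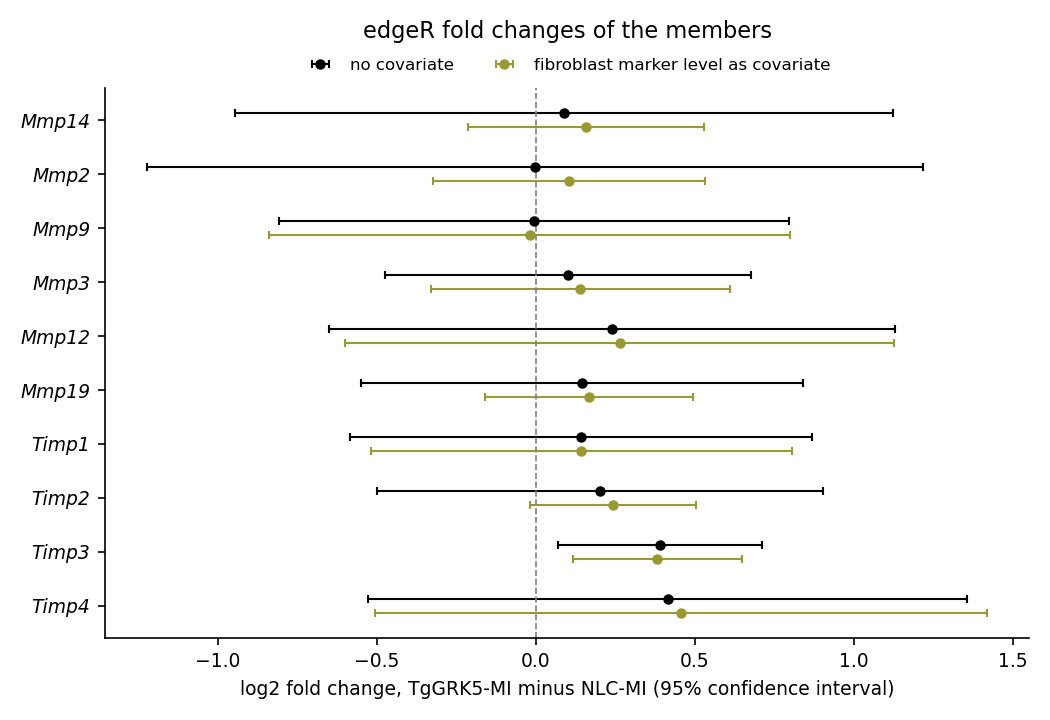
Log2 fold change of each member in edgeR with its 95% confidence interval, without a covariate (black) and with the fibroblast marker level of the library as a covariate (olive). The interval of Timp3 lies above 0 in both, from 0.07 to 0.71 and from 0.12 to 0.65, and those of Mmp14, Mmp2, Mmp19 and Timp2 narrow with the covariate.

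Several members ran with markers of other cell types across the libraries. Of 70 pairs of a member and a marker list, 20 were related at an adjusted p under 0.05 (Pearson's r of log2 CPM over 10 libraries, permutation test with 100000 resamples, Benjamini-Hochberg adjustment over the 70). With group means subtracted 21 pairs passed, and the labels give no batch. CPM values are shares of a library, so libraries with more RNA of one kind hold lower shares of the rest. Mmp14, Mmp2, Timp2 and Mmp19 rose with the fibroblast marker level. For Mmp14 r was 0.954 and Spearman's rho 0.988 (permutation p = 1e-05 for r, the smallest these resamples give, adjusted 0.0007, and 3e-05 for rho), and r was 0.940 without the 2 libraries farthest from the median. For Timp2 r was 0.948 and rho 0.952 (permutation p = 0.0001 and 0.00015, adjusted 0.0035 and 0.00525), and r was 0.922 without those 2. For Mmp2 r was 0.95 and rho 0.891 (permutation p = 0.0002 and 0.00121, adjusted 0.00437 and 0.0169), and r was 0.912 without them. For Mmp19 r was 0.935 and rho 0.867 (permutation p = 0.00047 and 0.00214, adjusted 0.0049 and 0.0214), and r was 0.917 without them.

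The fibroblast level was 14314 to 25013 CPM in replicates 1 and 2 of both groups and 4157 to 9861 CPM in the other 6 libraries. Over those 6 alone, r was 0.939 for Mmp14 (exact permutation p = 0.00139), 0.835 for Mmp19 (p = 0.0653, exact), 0.730 for Timp2 (p = 0.0889, exact) and 0.609 for Mmp2 (p = 0.207, exact). At an unadjusted p under 0.05 in this exact permutation test only Mmp14 of these 4 members passed, and Timp1 had r = 0.825 (p = 0.0167). This split was chosen after the levels were seen. With 6 libraries r = 0.835 did not pass while r = 0.825 did, so not passing says little about the size of r. The 4 lowest ratios of TIMP to MMP level per length were those of replicates 1 and 2 of both groups, the 4 libraries with the most fibroblast marker RNA. The fibroblast sum itself had a median of 7547 CPM over NLC-MI and 9861 CPM over TgGRK5-MI libraries, with a log2 difference of 0.05 between the group means (exact permutation p = 0.921).

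**Figure D4:**
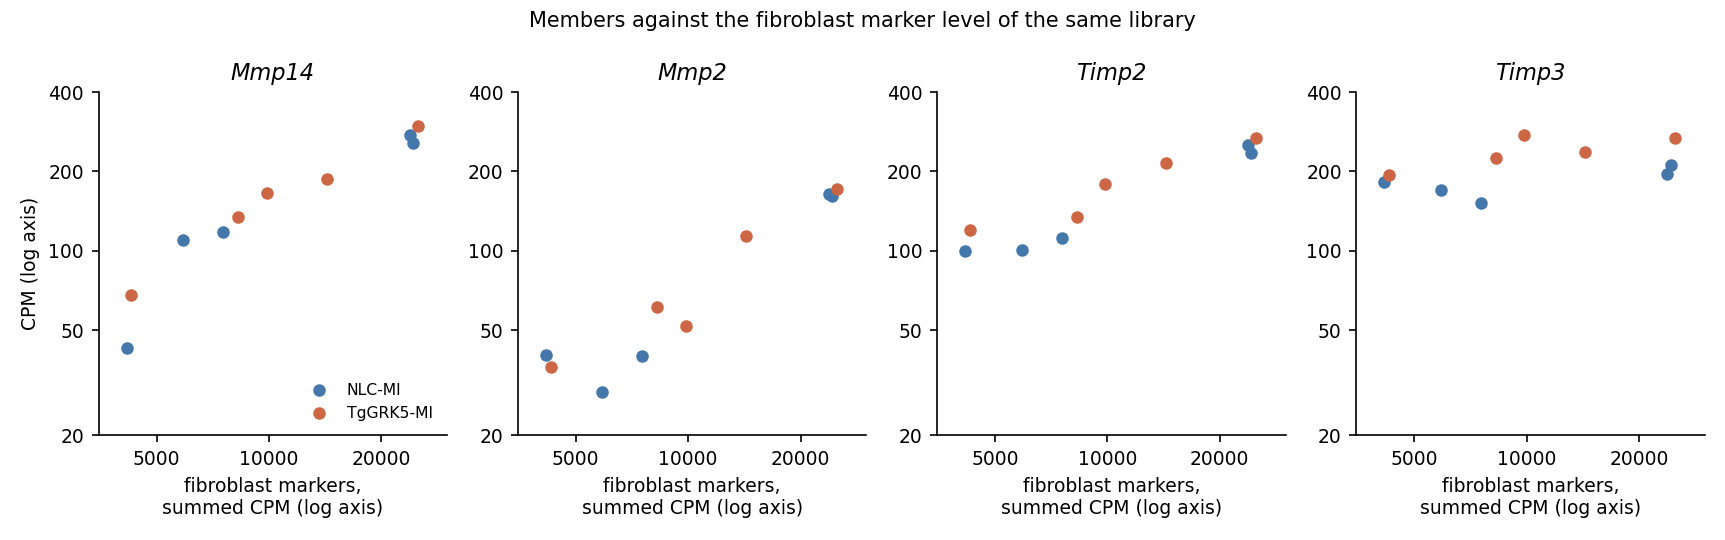
CPM of Mmp14, Mmp2, Timp2 and Timp3 (log axis) against the summed CPM of 10 fibroblast markers in the same library (log axis), 1 point per library, coloured by group. The first 3 genes rise with the fibroblast markers (r = 0.954, 0.95 and 0.948), and for Timp3 r was 0.495, which did not pass.

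Macrophage markers were related to the same 4 members, with r of 0.855 for Timp2, 0.849 for Mmp2, 0.797 for Mmp14 and 0.792 for Mmp19 (adjusted permutation p from 0.0217 to 0.0357), and r from 0.679 to 0.820 without the 2 farthest libraries. Spearman's rho was 0.903, 0.891, 0.855 and 0.661 in that order, and for Mmp19 its adjusted permutation p was 0.122. Timp1 and Mmp14 fell as cardiomyocyte markers rose, with r of -0.902 and -0.906 (rho -0.879 and -0.806, adjusted permutation p = 0.00437 and 0.0049 for r), and -0.687 and -0.672 without the 2 farthest libraries. Mmp9, Mmp12 and Timp1 rose with neutrophil markers, with r of 0.798, 0.800 and 0.869 (rho 0.636, 0.467 and 0.782, adjusted permutation p = 0.0341, 0.043 and 0.0217 for r). For rho the adjusted permutation p was 0.128, 0.301 and 0.049, so Mmp9 and Mmp12 did not pass by rank. Without the 2 farthest libraries the r values of Mmp9, Mmp12 and Timp1 were 0.495, 0.00388 and 0.535, so all 3 were weaker and the relation of Mmp12 rested on those libraries. The neutrophil markers were few, and their part in these levels was not tested. The remaining pairs that passed joined Mmp14 and Timp2 to mural and lymphocyte markers, Mmp12 to mural and lymphocyte markers and Timp1 to lymphocyte markers, with r from 0.724 to 0.895. The marker lists were not independent of each other. NLC-MI replicates 1 and 2 and TgGRK5-MI replicate 2 held the highest fibroblast, mural and lymphocyte sums, and their macrophage sums were 1898 to 2626 CPM. Relations to these lists are therefore not separate results. The lymphocyte sum was taken over 10 genes, of which 2 passed the filter on low counts, and did not exceed 7.20 CPM. With the mean log2 CPM of the markers in place of their sum, Mmp12 no longer passed with neutrophil or mural markers, nor Timp1 with neutrophil markers (adjusted permutation p = 0.154, 0.302 and 0.0885).

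Timp3, Timp4 and Mmp3 passed with no marker list on the pooled values. For Timp3 the largest r was 0.619, with macrophage markers (adjusted permutation p = 0.131), and r was 0.495 with fibroblast markers. With group means subtracted Timp3 passed with mural markers (r = 0.762, adjusted permutation p = 0.0463), and with the mean log2 CPM of the markers it passed with lymphocyte markers (r = 0.765, adjusted permutation p = 0.0395). For these pairs the pooled r was 0.606 and 0.540, and the part of those cells in the Timp3 level was not tested. For Timp4 the r values lay between -0.354 and 0.240. For Mmp3 r was -0.646 with fibroblast markers and 0.662 with endothelial markers (adjusted permutation p = 0.113 and 0.0934).

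**Figure D5:**
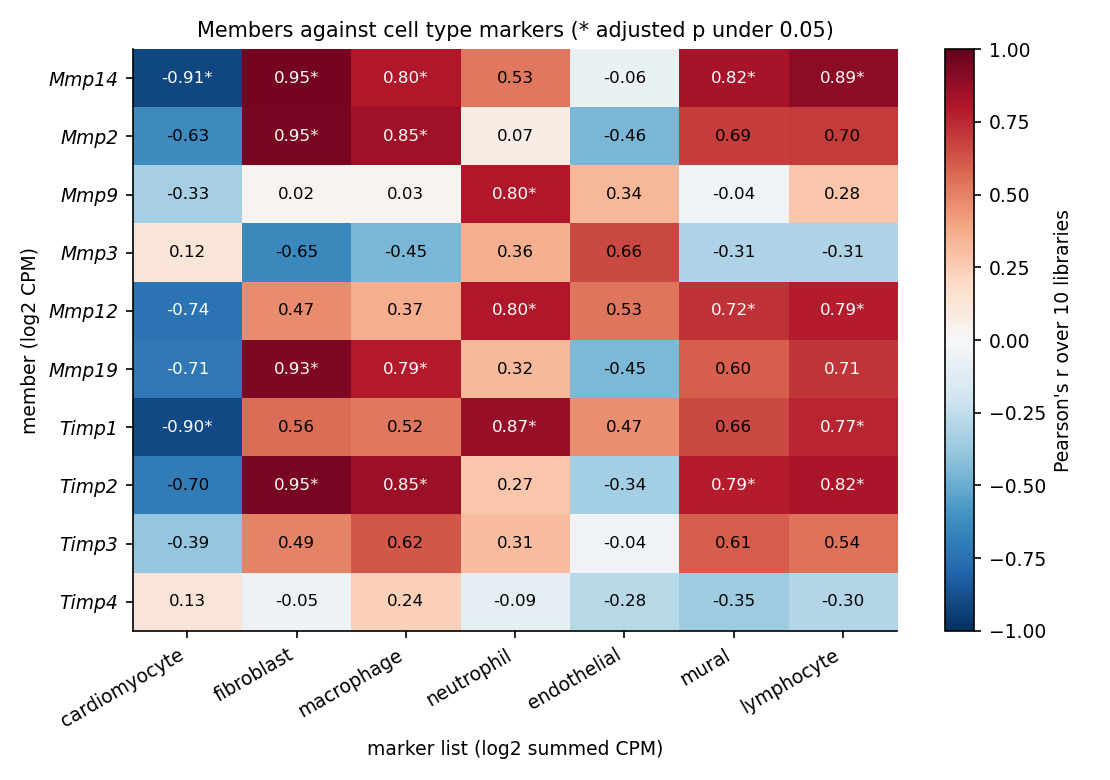
Pearson's r over 10 libraries between the log2 CPM of each member (rows) and the log2 summed CPM of each marker list (columns), from -1 (blue) to 1 (red), with an asterisk at an adjusted permutation p under 0.05. The 20 marked pairs include the fibroblast column for Mmp14, Mmp2, Mmp19 and Timp2, and none for Mmp3, Timp3 and Timp4 on these pooled values.

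With the fibroblast level as a covariate in edgeR, a fit added after the values were seen, the standard errors fell from 0.56 to 0.19 for Mmp2, from 0.47 to 0.17 for Mmp14, from 0.32 to 0.15 for Mmp19 and from 0.32 to 0.12 for Timp2. Those members were already known to run with this level, so smaller standard errors follow from that relation. The log2 fold change of Timp3 was 0.38 (SE 0.12, unadjusted p = 0.00867, adjusted p = 0.548 in edgeR's quasi-likelihood test), close to its value without the covariate. The fibroblast level itself differed little between the groups (log2 difference 0.05), so this similar value does not test the part of fibroblast RNA in Timp3. Timp2 had a log2 fold change of 0.24 (SE 0.12, interval -0.02 to 0.50), which did not pass. Timp3 was again the 1 member higher at an unadjusted p under 0.05, where 3.75% of all genes were in this fit, and 0 members had an adjusted p under 0.10.

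The members also ran with each other. Of 45 pairs, 8 were related at an adjusted permutation p under 0.05. Mmp2 and Timp2 had r = 0.952, Mmp14 and Timp2 had r = 0.892, and Mmp2 and Mmp14 had r = 0.836, so the 3 genes of the MMP2-activating complex were high in the same libraries (rho 0.903, 0.964 and 0.903, adjusted permutation p = 0.0054, 0.0054 and 0.0135 for r, and r of 0.916, 0.972 and 0.736 without the 2 farthest libraries). Mmp19 joined them, with r = 0.926 to Timp2, 0.912 to Mmp2 and 0.903 to Mmp14 (rho 0.855, 0.782 and 0.879). A second pair was Mmp12 and Timp1, with r = 0.883 and rho = 0.867 (adjusted permutation p = 0.0055 and 0.0198), and 0.704 without the 2 farthest libraries. Timp1 and Mmp14 had r = 0.774, but only 0.0747 without the 2 libraries farthest from the median of Mmp14. In the other pairs the 2 libraries left out were those farthest from the median of the gene named first.

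The genes whose levels were most like those of each member over the 10 libraries, by Pearson's r of log2 CPM with members left out, are given as a description. For Mmp2 they were Lrrc15 (r = 0.994), Cemip (0.992) and Cpxm1 (0.984), and for Mmp14 they were Ccn4 (0.994), Col8a1 (0.994) and Lox (0.990). Lox encodes the lysyl oxidase that crosslinks collagen, and Col8a1 a collagen chain. For Timp2 they were Aplp1 (0.985), Srpx (0.983) and Antxr1 (0.982), for Mmp19 Fzd1 (0.973), Src (0.969) and C1qtnf3 (0.967), and for Timp1 Mest (0.987), Melk (0.984) and Morf4l2 (0.983). Mmp12 was most like Myef2 (0.984), Lxn (0.979) and Tpm3 (0.977). The nearest genes of the other members had lower r, with Tnfsf13 (0.926), Tbc1d23 (0.879) and Ighm (0.862) for Timp3, Spata5 (0.926), Cep89 (0.918) and Tmem53 (0.917) for Timp4, Eef1e1 (0.932), Exosc2 (0.922) and Pno1 (0.905) for Mmp3, and Kpnb1 (0.880), Slc16a13 (0.877) and Rap1gds1 (0.877) for Mmp9.

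Of the 17 other MMP genes, 9 were tested, and 0 passed an unadjusted p under 0.05 in edgeR, with a median log2 fold change of 0.18. Mmp15, a membrane-type MMP, was highest, with 83.0 ± 12.5 CPM among NLC-MI and 79.1 ± 19.9 CPM among TgGRK5-MI libraries, followed by Mmp23 (23.7 ± 17.2 and 27.1 ± 15.7 CPM) and Mmp11 (9.80 ± 4.21 and 9.05 ± 3.78 CPM). Mmp1a, Mmp1b, Mmp7 and Mmp20 had 0 counts in all 10 libraries.

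Genes that activate or restrain MMPs showed 1 call among the 18 of 25 tested. Furin, the convertase that cuts the proform of membrane-type MMPs, was lower in TgGRK5-MI at 86.0 ± 10.7 CPM against 116 ± 16.5 CPM in NLC-MI (log2 fold change -0.43, SE 0.14, unadjusted p = 0.0115, adjusted p = 1.00 in edgeR's quasi-likelihood test). The unadjusted p of Furin stayed at or below 0.0321 whichever library was left out. Among the most abundant genes of this list, Bsg and Lrp1 (a receptor that clears MMPs) had log2 fold changes of 0.22 (SE 0.24) and -0.13 (SE 0.39). The protease genes Elane, Ctsg and Plg had 0 or 1 count in every library.

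All 7 cathepsin and cystatin genes were tested and 0 passed an unadjusted p under 0.05 in edgeR. Of their fold changes 7 of 7 were above 0 (median 0.27 on the log2 scale), beside 7646 of all 15232 genes tested. Ctsd and Ctsb, the most abundant, had log2 fold changes of 0.28 (SE 0.23) and 0.27 (SE 0.22), and Cst3, which encodes the inhibitor cystatin C, had 0.07 (SE 0.23). Of the 20 matrix substrates 0 passed in edgeR either, with a median of -0.11. Col3a1, Col1a1 and Col1a2, the fibrillar collagens, had log2 fold changes of -0.10, -0.15 and -0.11, each with an SE of at least 0.57.

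Of the 16 inducers of MMP genes, 3 were lower and 0 higher in TgGRK5-MI at an unadjusted p under 0.05, beside 2.08% and 1.77% of all genes, with a median log2 fold change of -0.18. The 3 were Fos, Junb and Jun, which encode subunits of AP-1. The other AP-1 genes of the list, Fosl1 and Fosl2, had log2 fold changes of -0.17 (SE 0.56) and -0.23 (SE 0.23) and did not pass. Fos had 191 ± 107 CPM among NLC-MI and 75.3 ± 9.67 CPM among TgGRK5-MI libraries. The groups did not overlap for Fos, nor for 1.00% of all genes, but they nearly touched. The lowest NLC-MI library was at 86.0 CPM and the highest TgGRK5-MI library at 84.8 CPM. For Fos the log2 fold change was -1.34 (SE 0.33), and its unadjusted p in that fit of edgeR was 0.00177. Its adjusted p was 0.501 in edgeR's quasi-likelihood test and 0.0347 in DESeq2, on the same counts. Junb was at 190 ± 47.8 and 113 ± 30.1 CPM (log2 fold change -0.75, SE 0.21, unadjusted p = 0.00436, adjusted p = 0.770 in edgeR). Jun was at 268 ± 159 and 137 ± 57.1 CPM (log2 fold change -0.96, SE 0.38, unadjusted p = 0.0282, adjusted p = 1.00 in edgeR). Left out in turn, no single library took the unadjusted p of Fos or Junb above 0.0136, whereas that of Jun passed in 4 of 10 such fits. It did not pass without NLC-MI replicate 3 (0.0982, with a log2 fold change of -0.61) or 5, or without TgGRK5-MI replicate 1, 2, 4 or 5, and was 0.175 without both libraries under 10000000 counts and 0.0685 in limma-voom (log2 fold changes of -0.55 and -0.57). The cytokine inducers Il1b, Tnf and Il6 were low, at 8.88 ± 3.51, 1.57 ± 0.333 and 2.77 ± 1.43 CPM in NLC-MI, and had log2 fold changes of -0.13 (SE 0.32), -0.09 (SE 0.33) and -0.21 (SE 0.35). Over these 5 lists the genes that passed an unadjusted p under 0.05 numbered 4 in edgeR, 4 in DESeq2 and 4 in limma-voom, and those of limma-voom did not include Jun. Mmp3 and Mmp12, whose upstream sequences hold the motif, had fold changes of 0.10 and 0.24 on the same scale, and a link between AP-1 and either gene was not tested.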

How the data were processed

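RNA of isolated cardiomyocytes was sequenced from 5 NLC-MI and 5 TgGRK5-MI mice on day 4 post-MI, with groups and replicate numbers taken from the sample labels. The deposited table of the authors holds raw counts, whole numbers for each Ensembl gene without any normalization. The submitters' processing notes name Bowtie2, RSEM 1.2.31, DESeq2 and mm10 without roles; the counting and strand settings are not given in the sources used here, and the library kit (TruSeq RNA v2) does not mark strand. Where reads were estimated, as RSEM does, shared reads may have been split between genes. Library totals and the 5 mice per group limit the precision.

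Symbols, positions and exon lengths came from GENCODE M21 (51596 of 51789 identifiers). In R 4.3.3, edgeR 4.0.16 (TMM, filterByExpr, quasi-likelihood F test) was fitted over 15232 of the 28506 genes with counts, with Benjamini-Hochberg adjustment; the thresholds were an adjusted p under 0.10 and an unadjusted p under 0.05. Log2 CPM had a prior count of 2. Exact permutation tests and the permutation tests of r used numpy 2.4.6. The fit was tested on simulated data. Alternatives were RLE factors, library size alone, DESeq2 1.42.0, limma-voom 3.58.1 with quality weights, no filter and at least 10 counts in every library. These weights let libraries count unequally in every limma-voom value given. Further alternatives were a replicate block, leaving out each library, a prior count of 0.5, group means subtracted and the mean log2 CPM of the markers. The fibroblast covariate, the fit without the 2 shallowest libraries and the relations over the 6 libraries with lower fibroblast level were chosen after seeing the data. The members and gene lists were chosen with earlier results of these data known. Named are all members, pathway genes with an unadjusted p under 0.05, the 3 most abundant genes of each list, the 2 leading markers and those near 0, and the 3 genes most like each member; any others, such as the MMP genes at 0 counts, Elane, Ctsg, Plg and the cytokine inducers, were named after their values were seen. The result for 1 item is not reported here.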

Additional observations from a re-analysis of the deposited data

Results flagged for a closer look

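Mmp12 in TgGRK5-MI replicate 4 stood apart from the other libraries of its group, at 50.7 CPM against 25.2 CPM for the next and 16.2 CPM for the lowest. The gap to the next library was 0.739 of the whole range. It was the 1 library flagged in 20 groups of 5 (10 members in both groups), and chance flags about 1 group in 20. Timp1 was also highest of all libraries in this one, at 187 CPM, and so was Timp3, at 275 CPM against 267 CPM for the next library. The neutrophil marker sum was highest there too, at 48.6 CPM, while Ly6g stayed at 0 or 1 count. So was the endothelial marker sum, at 2373 CPM against 2369 CPM for the next. The part of these cells and genes in the Mmp12 level was not tested. The library held 9114469 counts, 471 of them for Mmp12.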

How the results depend on the processing

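No alternative gave a member with an adjusted p under 0.10. The count of members with an unadjusted p under 0.05 was 1 (Timp3) or 0 with 1 library left out (0 without NLC-MI replicate 4, TgGRK5-MI replicate 2 or TgGRK5-MI replicate 4), and 0 without both libraries under 10000000 counts. In 19 alternatives the log2 fold changes of Timp3 and Timp4 kept their sign, and others near 0 turned. In limma-voom with quality weights on the libraries, those of Mmp12, Mmp14, Mmp19 and Timp2 were -0.13, -0.26, -0.081 and -0.064. Mmp2 was at 0.0011 with no filter and at 0.10 with the fibroblast covariate, and Mmp14 at -0.0086 without the libraries under 10000000 counts. When 1 library at a time was dropped, log2 fold changes ranged from -0.41 to 0.35 for Mmp2, -0.037 to 0.30 for Mmp3, -0.26 to 0.38 for Mmp9, -0.16 to 0.40 for Mmp12, -0.21 to 0.36 for Mmp14, -0.015 to 0.30 for Mmp19, -0.091 to 0.28 for Timp1, 0.026 to 0.41 for Timp2, 0.33 to 0.45 for Timp3 and 0.12 to 0.69 for Timp4. The count of genes of the 5 other lists with an unadjusted p under 0.05 was 4, and 3 or 4 with 1 library dropped. It was 3 without the libraries under 10000000 counts, 6 with the replicate block and 8 with the fibroblast covariate. In the covariate fit 3.75% of all genes were called higher, against 1.77% without the covariate, so more calls came over the whole table as well. The cause was not tested.

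The replicate block turned the log2 fold changes of Mmp2 to 0.17 and of Mmp9 to 0.078 and changed no call of a member. Same-numbered libraries are different mice, and their deviations had correlations of 0.0717, 0.662, 0.381, -0.341 and 0.0848, with 2 of 10 libraries closest to their own number, so the numbers were not taken to pair them.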
